A study of Homo sapiens with 24 samples.

Results

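Interferon regulatory factor (IRF) transcripts were followed in HepG2 cells, a human hepatocellular carcinoma cell line, across 8 treatment groups of 3 libraries each. The members were the 7 gene symbols IRF1, IRF2, IRF3, IRF5, IRF7, IRF8 and IRF9, taken by name from the 26475 symbols in the count files. Of the 4 groups without interferon gamma (IFNγ), the control received the solvent DMSO, and the others received 50 nM of ABBV-075 or ABBV-744 in doses of 50 or 500 nM. The other 4 groups received IFNγ, either alone or on top of one of these 3 inhibitor treatments. ABBV-075 blocks both bromodomains of the bromodomain and extra-terminal (BET) proteins, which bind acetylated chromatin, and ABBV-744 is selective for the second one. The study's methods give 12 h for ABBV-075 and 24 h for DMSO, so in that comparison the compound and the time cannot be told apart. The times of the other treatments and the dose of IFNγ are not given in the sources used here. All libraries came from 1 cell line, and the libraries of a group are called replicates without a statement of separate cultures for every group, so the p-values measure the spread between these libraries.

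IRFs are transcription factors that share a DNA-binding domain and bind GAAA-containing elements in the promoters of interferon-induced genes. IFNγ acts through its receptor, the kinases JAK1 and JAK2 and gamma-activated sites (GAS) in promoters, and so induces IRF1, an activator that in turn switches on antigen-presentation genes. IRF9 joins STAT2 in the complex ISGF3, and IRF2 competes with IRF1 for the same elements. IRF3, IRF5 and IRF7 stay in the cytoplasm until sensors of pathogens activate them, and IRF8 works mainly in blood cells.

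RefSeq (GRCh38.p14) places IRF1 at chr5:132481609-132490773, IRF2 at chr4:184387729-184474550, IRF3 at chr19:49659572-49665857, IRF5 at chr7:128937032-128950038, IRF7 at chr11:612555-615950, IRF8 at chr16:85899162-85922609 and IRF9 at chr14:24161265-24166565. Promoter sequences of RefSeq were at hand for 4 of the 7 members, IRF1, IRF5, IRF8 and IRF9, in 8 windows that reach from 250 bases before a start site to 50 bases after it. The windows were searched on both strands for a GAS, spelled TTC and GAA with any 3 bases between them, and for a GAAA repeat, spelled GAAA and GAAA with any 2 bases between them, which IRFs and ISGF3 bind. IRF1 held 1 GAS, TTCCCCGAA at bases -124 to -116 from its start site, and IRF9 held 1 GAS, TTCTGGGAA at bases -63 to -55. Both sequences are shown because the transcripts of these genes rose with IFNγ in every comparison below. IRF5 and IRF8 held no GAS in their windows, whose start sites (the first at chr7:128937927-128937927 and chr16:85902830-85902830) lie inside the gene, so the sequence before the outermost RefSeq start of these 2 genes was not searched. Of all 35116 promoters in the same table, 7.66% held a GAS, and 3.57% held the GAAA repeat, which was found in no window of the members. The 250 bases before each start site are shown 5′ to 3′ on the strand of the gene, with the GAS in capitals, for chr5:132490774-132491023 (minus strand) and chr14:24161015-24161264 (plus strand).
IRF1: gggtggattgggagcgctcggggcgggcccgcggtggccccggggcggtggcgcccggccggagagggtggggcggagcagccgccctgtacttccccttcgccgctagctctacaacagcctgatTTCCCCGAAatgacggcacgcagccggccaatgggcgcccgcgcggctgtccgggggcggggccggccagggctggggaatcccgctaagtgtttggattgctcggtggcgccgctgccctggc
IRF9: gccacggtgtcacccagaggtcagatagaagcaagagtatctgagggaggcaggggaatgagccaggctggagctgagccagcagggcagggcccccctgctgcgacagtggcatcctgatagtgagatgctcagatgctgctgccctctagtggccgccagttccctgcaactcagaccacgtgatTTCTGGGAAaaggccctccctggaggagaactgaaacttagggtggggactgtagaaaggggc

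Between 2978982 and 4304103 reads per library were counted on genes. Levels are given below as CPM, read counts scaled to library size by TMM over all 24 libraries, and CPM per kb of the canonical transcript is used where genes are compared with each other. A gene was called changed where edgeR's quasi-likelihood test gave a p-value, adjusted by Benjamini-Hochberg over all genes that passed a filter on low counts, no higher than 0.05. All 9 hepatocyte markers passed that filter, while the leukocyte marker PTPRC had 0 reads in all 24 libraries. The 9 leukocyte markers summed to 1191 to 1859 CPM by group, of which all but 0.934 to 5.73 CPM was LYZ. LYZ fell with ABBV-075, by 0.54 on the log2 scale with and without IFNγ, beside the lower IRF3 and IRF5 described below. CD14, the other leukocyte marker tested, had 4.10 CPM with IFNγ alone and was called lower with ABBV-075 (0.806 CPM) and with ABBV-744 at 50 nM (0.696 CPM) added, beside the lower IRF9 and IRF3. The part of these markers in those results was not tested. HEXIM1, a gene that rises when BET proteins are blocked, had 53.8 ± 3.15 CPM (SD, n = 3) in DMSO, 145 ± 7.46 with ABBV-075, 65.1 ± 4.14 with ABBV-744 at 50 nM and 89.5 ± 4.88 at 500 nM, and it was called with ABBV-075 and with 500 nM of ABBV-744. Of 3 such markers, HEXIM1 among them, these treatments raised 3, 1 and 2 without IFNγ, beside 19.8%, 8.81% and 7.48% of all genes. With IFNγ the counts were also 3, 1 and 2, beside 28.2%, 27.4% and 22.9%. In bulk RNA, fewer expressing cells and less RNA per cell cannot be told apart.

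The base content of genes moved with the groups. In genes with a GC content up to 41.4% the median log2 fold change of ABBV-744 at 50 nM with IFNγ against IFNγ was 0.72, and in genes with at least 55.9% it was -0.33. For IFNγ against DMSO these medians were -0.10 and 0.07. GC contents of the longest transcripts were 59.0% for IRF3, 53.9% for IRF9, 52.9% for IRF5, 52.6% for IRF1 and 46.2% for IRF2. GC-corrected fold changes come from an alternative chosen after seeing the data. They are given beside the member results whose call or direction they changed, and beside some others. Where none is given, the correction may still have moved the value.

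In DMSO-treated cells IRF3 was the most abundant member, with 28.4 ± 4.41 CPM per kb (SD, n = 3). IRF9 followed with 11.3 ± 1.51, IRF2 with 7.89 ± 0.204, IRF1 with 3.38 ± 0.415 and IRF5 with 1.55 ± 0.473 CPM per kb. No neighbours in this order overlapped between libraries. The same order of these 5 genes held in the 3 groups given an inhibitor without IFNγ. With IFNγ alone the order became IRF9 (108 ± 5.45 CPM per kb), IRF1 (64.5 ± 6.03), IRF3 (32.3 ± 3.42), IRF2 (11.2 ± 1.68) and IRF5 (2.19 ± 0.493), again without overlap between neighbours.

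**Figure D1:**
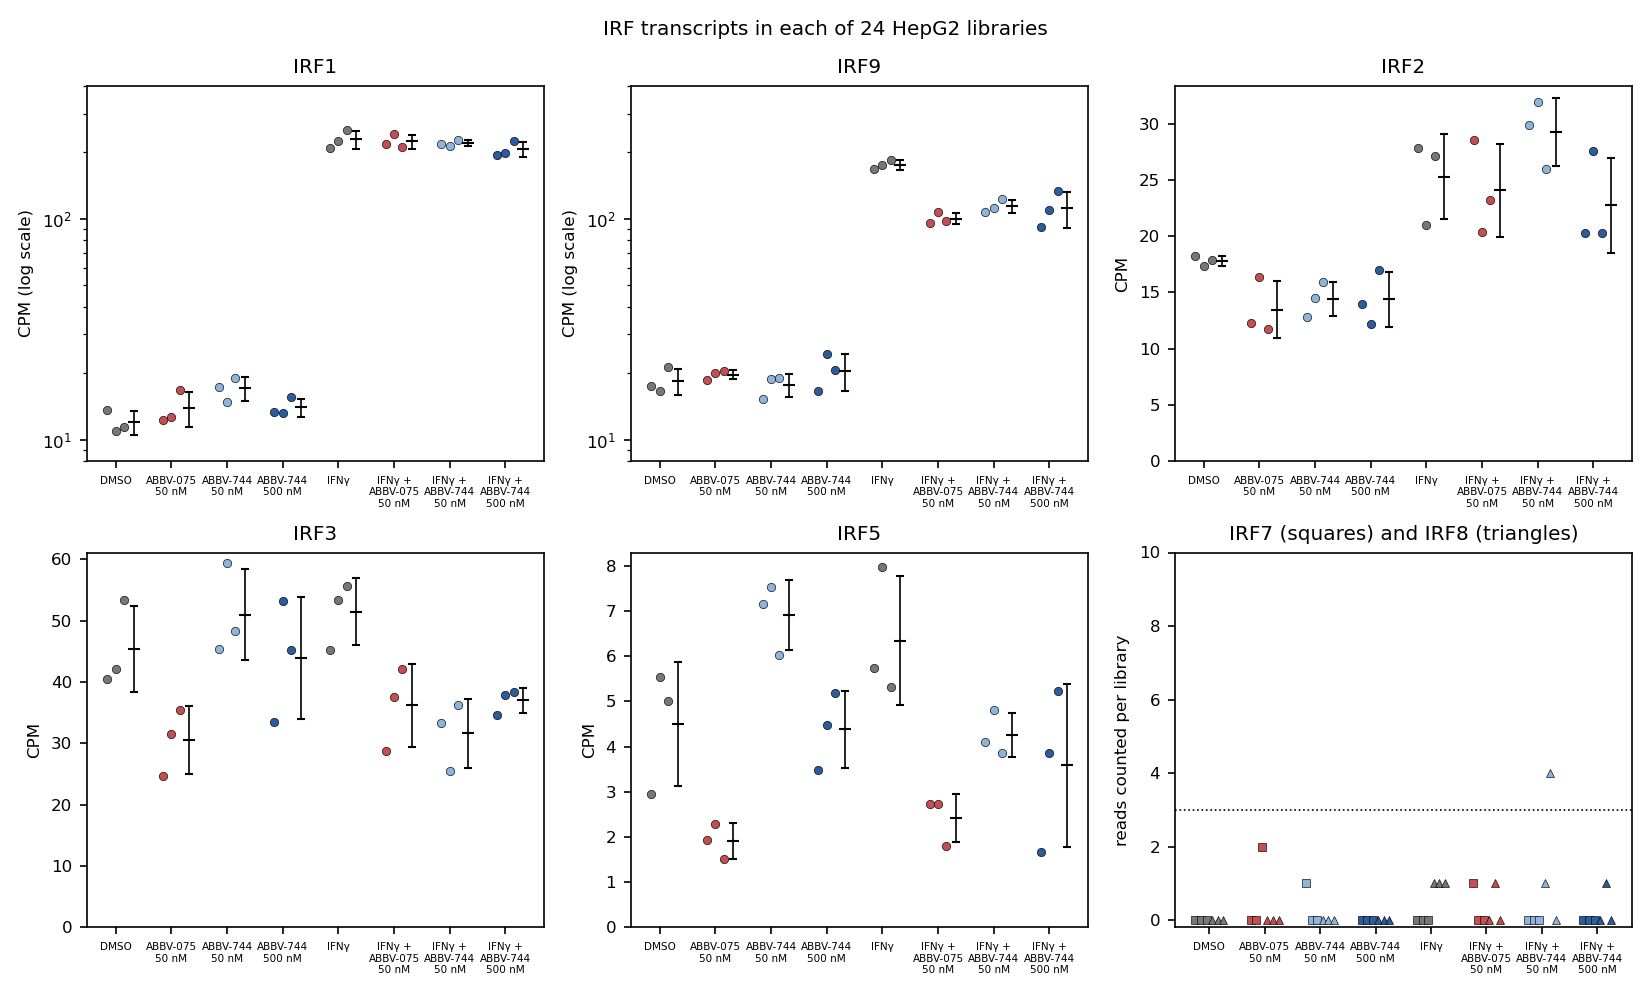
Level of each member in every library, by treatment group. The vertical axes give CPM (log scale for IRF1 and IRF9, linear for IRF2, IRF3 and IRF5) or, in the last panel, reads counted per library for IRF7 and IRF8, with a dotted line at 3 reads. Circles, squares and triangles are libraries, and bars are mean ± SD of 3 libraries. All IFNγ-treated libraries lie above all untreated ones for IRF1 and IRF9, and every IFNγ library with an inhibitor lies below every library with IFNγ alone for IRF9.

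IFNγ raised IRF1 and IRF9 strongly, and no other member passed the test. These were 2 of the 5 members tested, beside 3.46% of the 11217 genes tested. IRF1, the activator of antigen-presentation genes, had 13.7, 10.9 and 11.4 CPM in the DMSO libraries and 209.8, 226 and 252 CPM in the IFNγ libraries. All IFNγ libraries were far above all DMSO libraries, a 19.2-fold rise (log2 fold change 4.26, SE 0.12, adjusted p = 4.53e-27). IRF9, the DNA-binding subunit of ISGF3, had 17.4, 16.7 and 21.2 CPM in DMSO and 168, 175 and 185 CPM with IFNγ. The groups were again far apart, with a log2 fold change of 3.25 (SE 0.11, adjusted p = 5.51e-24). Both calls held in all 6 fits that left out 1 library.

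IRF2, the competitor of IRF1, had 18.2, 17.3 and 17.9 CPM in DMSO and 27.8, 21.0 and 27.1 CPM with IFNγ. The groups did not overlap, and the log2 fold change was 0.51 (SE 0.16), but the adjusted p of 0.0717 missed the threshold. It passed with the GC correction (0.52, adjusted p = 0.0344) and without the second IFNγ library (0.63, adjusted p = 0.0327). IRF3, the factor that induces type I interferon once phosphorylated, had log2 fold change 0.18 with an approximate 95% interval from -0.06 to 0.42. IRF5, a factor downstream of Toll-like receptors, had log2 fold change 0.46 with an interval from -0.13 to 1.05, and for both genes the groups overlapped.

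The balance between IRF1 and its competitor was followed within each library. The ratio of IRF1 to IRF2 (CPM per kb) was 0.476, 0.399 and 0.406 in the DMSO libraries and 4.79, 6.85 and 5.91 in the IFNγ libraries. These ratios did not overlap, and the exact permutation test (two-sided) gave p = 0.1, the smallest value that 3 against 3 libraries allow. With an inhibitor alone the ratio was 0.679 ± 0.214 for ABBV-075, 0.756 ± 0.104 for ABBV-744 at 50 nM and 0.625 ± 0.0539 at 500 nM (SD, n = 3). No library of these groups overlapped DMSO (exact permutation p = 0.1 each). The ratios were not GC-corrected. Against DMSO, median log2 fold changes in genes of low and high GC content were -0.30 and 0.24 with ABBV-744 at 50 nM. At 500 nM they were -0.16 and 0.14, and with ABBV-075 they were 0.39 and -0.14. The part of these trends in the ratios was not tested.

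Without IFNγ, ABBV-075 lowered IRF3 and IRF5. They were 2 of the 5 members tested, where 39.3% of all genes tested were called. This share was 25.8% without the first DMSO library and 25.8% without the second ABBV-075 library. It was 52.3% without the third ABBV-075 library and 45.1% with the GC correction. IRF3 had 40.5, 42.2 and 53.4 CPM in DMSO and 24.6, 31.6 and 35.5 CPM with ABBV-075. The groups did not overlap (log2 fold change -0.60, SE 0.18, adjusted p = 0.0175). Over the alternatives other than leaving out 1 library, GC correction included, this value ran from -0.61 to -0.44. IRF5 was low throughout, with 11, 25 and 21 reads in the DMSO libraries and 8, 8 and 5 reads in the ABBV-075 libraries. Its log2 fold change was -1.26 (SE 0.36, adjusted p = 0.0163), and the CPM of the groups did not overlap. Over the same kinds of alternatives the IRF5 value ran from -1.27 to -1.07. Both calls were lost without the third DMSO library (adjusted p = 0.102 for IRF3 and 0.0585 for IRF5). The IRF3 call was also lost without the second ABBV-075 library (0.0612), and the IRF5 call without the second DMSO library (0.0766) and in DESeq2 (0.0919).

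The members that IFNγ raised were not called with ABBV-075 alone. IRF1 had log2 fold change 0.19 (interval -0.22 to 0.60) and IRF9 had 0.07 (interval -0.27 to 0.41). IRF2 had 12.3, 16.4 and 11.7 CPM against 18.2, 17.3 and 17.9 in DMSO. Its libraries did not overlap, but its log2 fold change of -0.43 had an adjusted p of 0.0891.

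With ABBV-744 alone none of the 5 members was called at either dose by edgeR, and none by DESeq2, where edgeR called 18.9% of all genes tested at 50 nM and 15.3% at 500 nM. These shares fell to 6.31% and 7.05% without the second DMSO library, to 8.03% and 7.77% without the third, and to 10.2% and 8.83% without the third ABBV-744 library of each dose. They rose to 23.5% and 17.7% without the first ABBV-744 library of each dose. With the GC correction they were 10.8% and 17.9%. These comparisons and that of ABBV-075 share their DMSO libraries. At 50 nM 1 member had an unadjusted p under 0.05, and at 500 nM 0 had. That member was IRF1, with 17.3, 14.8 and 19.1 CPM at 50 nM, each above the 3 DMSO libraries (log2 fold change 0.52, SE 0.19, adjusted p = 0.0556). It was called in 1 of the 6 fits that left out 1 library, the one without the second ABBV-744 library (0.61, adjusted p = 0.0312). Over the 10 other alternatives, GC correction included, the IRF1 value ran from 0.38 to 0.52. In 1 of them it was called, and adjusted p-values reached 0.216. At 500 nM IRF1 had log2 fold change 0.24 (interval -0.15 to 0.63), and IRF9 had 0.16 (interval -0.20 to 0.51). IRF5 had 7.16, 7.54 and 6.03 CPM at 50 nM, all above the DMSO libraries, and its log2 fold change was 0.61 (adjusted p = 0.15).

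**Figure D2:**
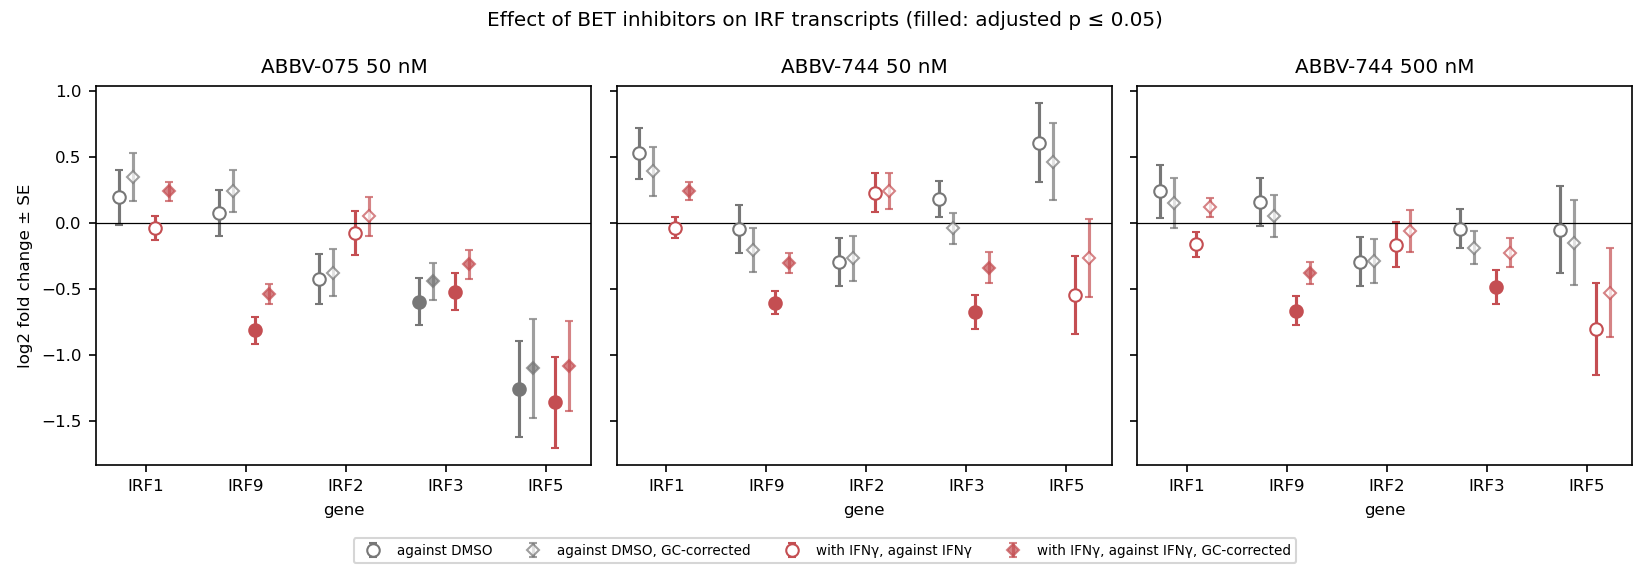
Log2 fold change ± SE of 5 members for each inhibitor, against DMSO (grey) and, in the presence of IFNγ, against IFNγ alone (red). Circles are the values reported and diamonds are GC-corrected values, and filled symbols passed an adjusted p of 0.05. In IFNγ-treated cells IRF9 is lower with every inhibitor, from -0.82 to -0.61, and IRF1 lies from -0.16 to -0.04, both before the correction.

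In IFNγ-treated cells all 3 inhibitor treatments lowered IRF9, while IRF1 was not called with any of them. IRF9 had 168, 175 and 185 CPM with IFNγ alone. It had 96.0, 107 and 97.9 CPM with ABBV-075 added, 108, 112 and 123 CPM with ABBV-744 at 50 nM, and 92.2, 109 and 133 CPM at 500 nM. Every library with an inhibitor was below every library with IFNγ alone. The log2 fold changes were -0.82 (SE 0.10, adjusted p = 6.57e-09) with ABBV-075, -0.61 (SE 0.09, adjusted p = 6e-07) with ABBV-744 at 50 nM and -0.67 (SE 0.11, adjusted p = 1.01e-05) at 500 nM. The 3 comparisons share their IFNγ libraries. With the GC correction the changes were smaller and still called: -0.54 (adjusted p = 1.85e-08), -0.30 (0.00166) and -0.38 (0.000663). Each call also held in all 6 fits that left out 1 library.

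IRF1 had 219, 243 and 211 CPM with IFNγ and ABBV-075, 218, 215 and 228 CPM with ABBV-744 at 50 nM and 195, 199 and 226 CPM at 500 nM. These overlap the 209.8, 226 and 252 CPM of IFNγ alone. The log2 fold changes were -0.04 (interval -0.22 to 0.14), -0.04 (interval -0.20 to 0.12) and -0.16 (interval -0.35 to 0.02). With the GC correction the sign turned for IRF1, to 0.24 (adjusted p = 0.00346) with ABBV-075, 0.24 (adjusted p = 0.00679) with ABBV-744 at 50 nM and 0.12 (adjusted p = 0.202) at 500 nM.

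The IRF9 to IRF1 ratio sets the 2 genes side by side within each library. In CPM per kb it was 1.75, 1.69 and 1.60 with IFNγ alone. It was 0.958, 0.963 and 1.02 with ABBV-075 added, 1.08, 1.14 and 1.18 with ABBV-744 at 50 nM, and 1.03, 1.20 and 1.29 at 500 nM. No library with an inhibitor reached the lowest value of IFNγ alone, and the exact permutation p of 0.1 for each comparison is the smallest possible. Without IFNγ the ratio was 3.39 ± 0.635 (SD, n = 3) in DMSO, and the groups with an inhibitor overlapped it. With ABBV-075 and IFNγ the 2 genes were level, at 63.1 ± 4.75 CPM per kb for IRF1 and 61.7 ± 3.67 for IRF9 (SD, n = 3), and their libraries overlapped.

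**Figure D3:**
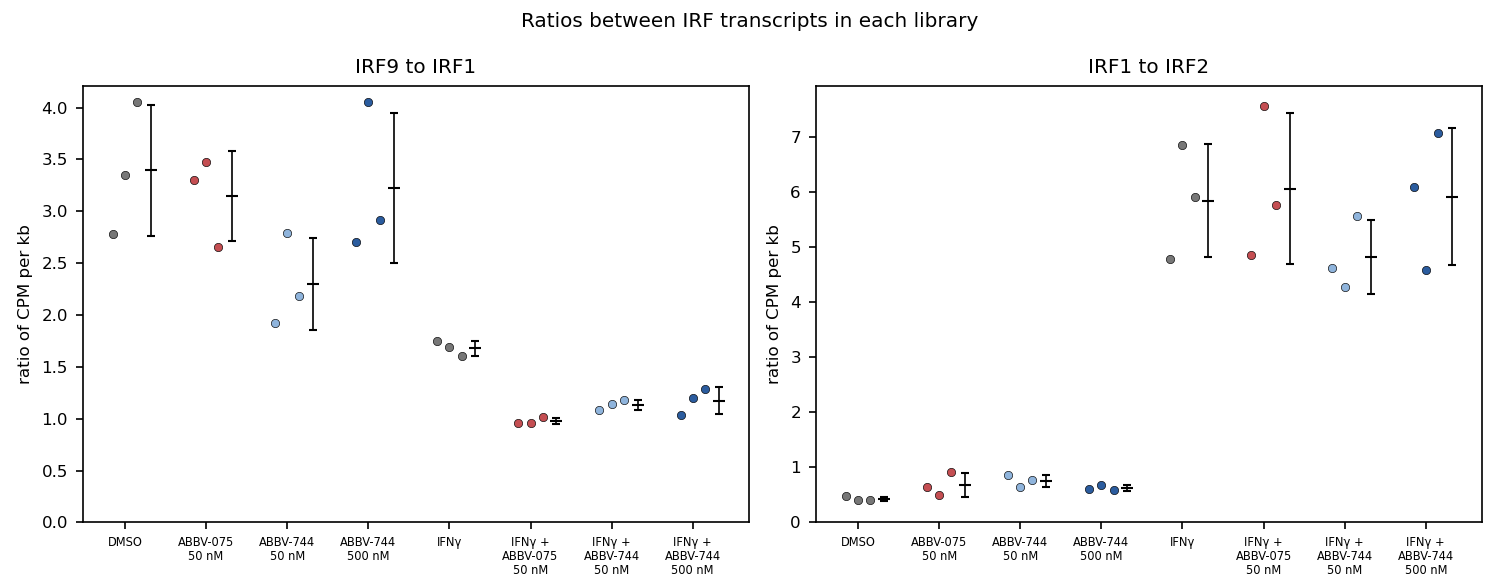
Ratios of IRF9 to IRF1 and of IRF1 to IRF2, in CPM per kb, for each library (circles) with mean ± SD of 3 libraries (bars), by treatment group. With IFNγ, the IRF9 to IRF1 ratio is 1.68 on average without an inhibitor and 0.979, 1.13 and 1.17 with the 3 inhibitor treatments, and the IRF1 to IRF2 ratios overlap.

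IRF3 was lower with each inhibitor in IFNγ-treated cells. It had 45.3, 53.4 and 55.7 CPM with IFNγ alone, 28.8, 37.5 and 42.2 CPM with ABBV-075, 33.3, 25.4 and 36.2 CPM with ABBV-744 at 50 nM, and 34.6, 38.0 and 38.4 CPM at 500 nM. None of the inhibitor groups overlapped IFNγ alone, with log2 fold changes of -0.52 (adjusted p = 0.00177), -0.68 (adjusted p = 6.02e-05) and -0.49 (adjusted p = 0.00274). GC-corrected values were -0.32 (adjusted p = 0.0145), -0.34 (adjusted p = 0.0261) and -0.23 (adjusted p = 0.104), so the last call was lost. IRF3 shares 734 bases with BCL2L12 on the opposite strand, and the counts used here were those on its own strand.

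IRF5 fell with ABBV-075 in IFNγ-treated cells, from 21, 27 and 19 reads with IFNγ alone to 11, 10 and 6 reads. The log2 fold change was -1.36 (SE 0.34, adjusted p = 0.000891) and the CPM ranges did not overlap. Over the alternatives other than leaving out 1 library, GC correction included, this value ran from -1.37 to -0.97. With ABBV-744 IRF5 had log2 fold changes of -0.55 (adjusted p = 0.123) at 50 nM and -0.81 (adjusted p = 0.0569) at 500 nM. The latter was called with the replicate block (-0.83, adjusted p = 0.0422) and without the third library of that group (-1.15, adjusted p = 0.0251). IRF2 was not called with any inhibitor, with log2 fold changes of -0.08, 0.23 and -0.17 and libraries that overlapped IFNγ alone. In all, 3 of 5 members were called with ABBV-075 and 2 of 5 with each dose of ABBV-744. Of all genes tested, 56.6%, 51.7% and 45.7% were called in these comparisons.

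Next, the response to IFNγ was measured with the inhibitor present in both groups. IRF1 rose by log2 fold changes of 4.04 (SE 0.17) under ABBV-075, 3.69 (SE 0.12) under ABBV-744 at 50 nM and 3.87 (SE 0.14) at 500 nM, beside 4.26 without an inhibitor. IRF9 rose by 2.38 (SE 0.15), 2.69 (SE 0.13) and 2.45 (SE 0.16), beside 3.25 without an inhibitor. Over the alternatives other than leaving out 1 library, these IRF9 values ran from 2.32 to 2.41, 2.69 to 3.09 and 2.44 to 2.75. Without an inhibitor they ran from 3.19 to 3.25. IRF2 rose under ABBV-744 at 50 nM, from 12.8, 14.5 and 15.9 to 29.9, 31.9 and 26.0 CPM (log2 fold change 1.03, SE 0.16, adjusted p = 3.26e-05). At 500 nM it rose by 0.65 (adjusted p = 0.011), and under ABBV-075 its log2 fold change of 0.87 was not called (adjusted p = 0.0836). That value was called with the replicate block (adjusted p = 0.0293) and with the GC correction (0.95, adjusted p = 0.00597). Without the second library given IFNγ and ABBV-744 at 500 nM, the IRF2 call at this dose was lost (0.49, adjusted p = 0.103).

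Members called in these fits were 2 of 4 tested under ABBV-075, 5 of 5 under ABBV-744 at 50 nM and 3 of 5 at 500 nM. The shares of all genes called were 1.05%, 60.2% and 40.9%. The first was 2.7% without the first library given ABBV-075 alone and 2.09% without the third, and the second was 32.6% with the GC correction. Under ABBV-744 at 50 nM, IRF3 (log2 fold change -0.68, adjusted p = 0.000748) and IRF5 (-0.69, adjusted p = 0.0355) were lower with IFNγ than without it. IRF3 had 45.3, 59.4 and 48.3 CPM with this inhibitor alone, all above the 33.3, 25.4 and 36.2 CPM with IFNγ added. IRF5 had 7.16, 7.54 and 6.03 CPM without IFNγ and 4.10, 4.80 and 3.87 CPM with it. With the GC correction neither was called, at -0.20 (adjusted p = 0.253) for IRF3 and -0.33 (adjusted p = 0.399) for IRF5, while 3 members were called beside 32.6% of all genes, among them IRF1 (4.05) and IRF9 (3.09). The IRF5 call was also lost in 4 of the 6 fits that left out 1 library. In this comparison the share of multimapping reads was 57.5% to 59.6% in the libraries with IFNγ and 66.2% to 69.4% in those without it. Its part in the result was not tested.

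**Figure D4:**
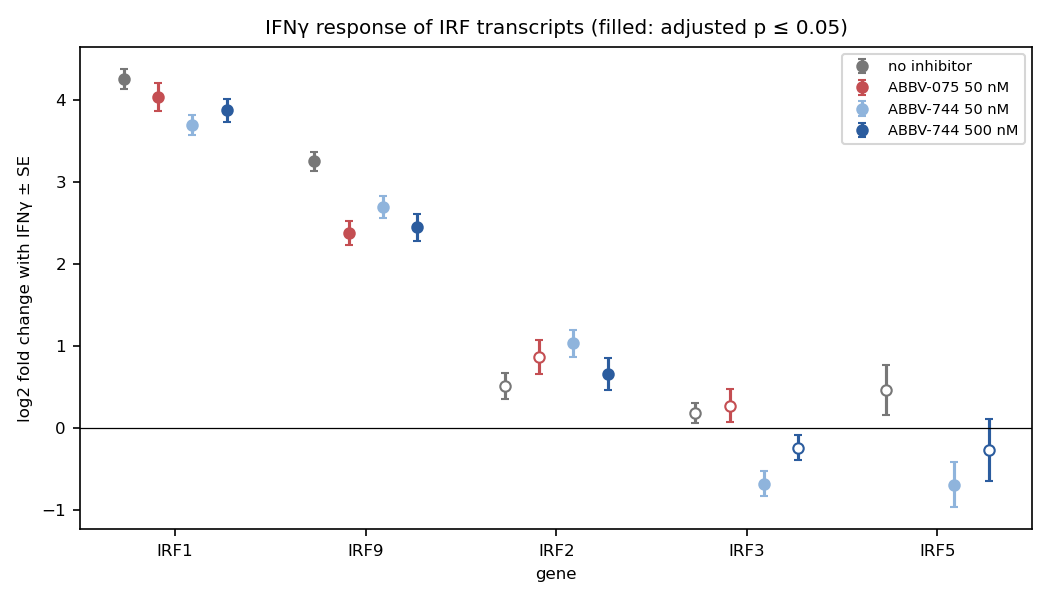
Log2 fold change ± SE with IFNγ for 5 members, without an inhibitor and under each inhibitor treatment. Filled symbols passed an adjusted p of 0.05, and IRF5 under ABBV-075 is not drawn because its counts did not pass the filter. The values are not GC-corrected. Those of IRF1 lie between 3.69 and 4.26, and those of IRF9 are 3.25 without an inhibitor and 2.38 to 2.69 with one.

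Whether the inhibitor effect differed with IFNγ was tested as an interaction over 4 groups. For ABBV-075 none of 5 members was called by edgeR, where 0.0347% of all genes were. The member with an unadjusted p under 0.05 was IRF9, with an interaction of -0.91 on the log2 scale (SE 0.18, unadjusted p = 6.28e-05, adjusted p = 0.107). DESeq2 called it (adjusted p = 0.0296), and so did the GC-corrected fit (-0.78, adjusted p = 0.0341) and the fit without the first library given ABBV-075 alone (-0.95, adjusted p = 0.0143). In that last fit 1.71% of all genes were called, and the share was 0.111% without the third library of that group and 0.06% without the first library given IFNγ and ABBV-075. For ABBV-744 at 500 nM the IRF9 interaction was -0.80 (SE 0.21, adjusted p = 0.0033), the only call among 5 members, where 33.5% of all genes were called. At 50 nM IRF9 (-0.59, adjusted p = 0.00867), IRF1 (-0.59, adjusted p = 0.00981), IRF3 (-0.88, adjusted p = 0.000578) and IRF5 (-1.18, adjusted p = 0.0168) were called, 4 of 5 members, where 51.6% of all genes were. The other member, IRF2, had an interaction of 0.49 (adjusted p = 0.0675), which was called with RLE size factors (0.55, adjusted p = 0.0421), by library size only (0.68, adjusted p = 0.0171), and without the first IFNγ library or the third library given IFNγ and ABBV-744 (adjusted p = 0.0452 each). The IRF5 call was lost in DESeq2 (adjusted p = 0.0762) and without the second IFNγ library (0.0623), and those of IRF1 and IRF9 were lost when libraries were scaled by size only (0.0801 and 0.0704). After the GC correction no member was called for either dose of ABBV-744, where 20.4% of all genes were called at 50 nM and 16.7% at 500 nM, with adjusted p-values of 0.091 for IRF9 at 500 nM and 0.736 at 50 nM.

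ABBV-075 and ABBV-744 were compared directly at their matched dose of 50 nM. Without IFNγ, IRF3 (log2 difference -0.75, SE 0.18, adjusted p = 0.00864) and IRF5 (-1.84, SE 0.31, adjusted p = 0.00214) were lower with ABBV-075, 2 of 5 members where 40.8% of all genes were called. This share was 23.7% without the second ABBV-075 library and 24.2% without the second ABBV-744 library. IRF5 had 8, 8 and 5 reads with ABBV-075 and 24, 24 and 19 reads with ABBV-744, a CPM of 1.91 ± 0.397 and 6.91 ± 0.783 (SD, n = 3), the widest gap between the compounds among the members. Over the alternatives other than leaving out 1 library, GC correction included, its log2 difference ran from -1.85 to -1.55. IRF1 and IRF9 were not called, with differences of -0.31 (interval -0.71 to 0.10) and 0.14 (interval -0.21 to 0.50). After the GC correction IRF9 was called higher with ABBV-075 (0.46, adjusted p = 0.0426), and the IRF3 difference was -0.39 (adjusted p = 0.0335). With IFNγ edgeR and DESeq2 called none of the 5 members, and 1 had an unadjusted p under 0.05, where edgeR called 33.7% of all genes. That member was IRF5, with a difference of -0.74 (adjusted p = 0.113). The IRF9 difference was -0.14 (interval -0.32 to 0.05), and it was called at -0.23 (adjusted p = 0.0212) with the GC correction and at -0.26 (adjusted p = 0.0386) by library size only. IRF3 was called without the first library given IFNγ and ABBV-075 (0.40, adjusted p = 0.0219).

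Between 500 nM and 50 nM of ABBV-744 no member was called with or without IFNγ, by edgeR or by DESeq2, where edgeR called 1.7% and 0.0274% of all genes. Leaving out 1 library moved these shares to 0.572% to 4.23% and to 0 to 0.0899%. In each comparison 1 member had an unadjusted p under 0.05, IRF2 with IFNγ (log2 difference -0.33, adjusted p = 0.323) and IRF5 without it (-0.66, adjusted p = 0.799). The difference for IRF9 with IFNγ was 0.00, with an interval from -0.20 to 0.21.

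IRF7, the factor that amplifies type I interferon, was at the floor of detection. It had 4 reads on its own strand in all 24 libraries together, at most 2 in any one, and 0 reads in 21 libraries. On the opposite strand 113 reads were counted for it, and PHRF1, a gene on that strand, ends 330 bases away. IRF8 had 0 reads in all 12 libraries without IFNγ and 10 reads in the 12 libraries with it, spread over 7 libraries with at most 4 in one. With IFNγ alone each of the 3 libraries had 1 read. A count of 0 allows up to 3 reads, which is 0.697 to 1.01 CPM depending on the library, so no fold change is given for IRF8. These limits cover counting error only.

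The genes around the IRFs were taken from fixed lists. Of 9 receptors, JAKs and STATs, IFNγ raised 2 and lowered none: STAT2 (log2 fold change 1.76, adjusted p = 2.61e-17) and STAT3 (0.70, adjusted p = 3.43e-09). Of all genes tested 2.76% were called higher and 0.695% lower. The median of the 9 listed genes was -0.05, and that of all genes tested was 0.00. With ABBV-075 added to IFNγ, 4 of the 9 were called higher and 2 lower, beside 28.2% and 28.4% of all genes. Among the lower ones was STAT2, the partner of IRF9 in ISGF3. It fell from 178 ± 21.0 to 69.6 ± 4.38 CPM (SD, n = 3; log2 fold change -1.36, adjusted p = 2.21e-13), beside the lower IRF9.

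With ABBV-744 and IFNγ, STAT2 was also lower, at -0.71 (adjusted p = 9.83e-08) with 50 nM and -0.82 (adjusted p = 7.74e-08) with 500 nM. At 50 nM 3 of the 9 genes were called higher and 4 lower, beside 27.4% and 24.3% of all genes. At 500 nM 2 were higher and 3 lower, beside 22.9% and 22.8%. With the GC correction the STAT2 calls held at -1.09, -0.48 and -0.56 for ABBV-075 and the 2 doses of ABBV-744.

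Genes induced through GAS and IRF1, such as guanylate-binding proteins and immunoproteasome subunits, were higher with IFNγ in 18 of 19 tested, with a median log2 fold change of 2.95. GBP4 and GBP5 had 0 reads in the DMSO libraries, and the median was the same with both set to their lower bound. Genes induced through ISGF3, mostly antiviral effectors, were higher in 20 of 20 tested, with a median of 1.86. Among the first list PSMB9, an immunoproteasome subunit, rose by 4.49, and among the second IFIT3, an antiviral effector, rose by 3.71 on the log2 scale. OAS2, a sensor of double-stranded RNA, went from 4 reads in the DMSO libraries together to 47.7 CPM. Over all genes tested 2.76% were called higher.

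With IFNγ and ABBV-075, 16 of 19 tested genes of the GAS and IRF1 list were lower than with IFNγ alone and none was higher, with a median of -0.70. Among them were CASP1 (-3.13), an inflammatory caspase that went from 87 to 10 reads over 3 libraries, and GBP5 (-2.82), a guanylate-binding protein. Of the ISGF3 list, 16 of 21 were lower and 2 higher, with a median of -0.83. IFITM1, which blocks viral entry, had 119 reads with IFNγ alone and 4 with ABBV-075 added, and it was called lower. MX1, an antiviral GTPase, fell by 2.48 on the log2 scale, while IFIT2 (1.58) was higher. Of all genes tested 28.4% were called lower and 28.2% higher in this comparison, and their median was 0.00. Without IFNγ, ABBV-075 lowered 11 of 15 tested genes of the GAS and IRF1 list (median -0.83) and 7 of 15 of the ISGF3 list (median -0.54), where 19.6% of all genes were called lower. In the interaction fit edgeR called 1 of 19 genes of the first list, TAP2 (0.96), and 0 of 21 of the second, with 7 and 4 at an unadjusted p under 0.05. The interaction medians were 0.05 and -0.11.

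With ABBV-744 at 50 nM and IFNγ, 10 of 19 genes of the GAS and IRF1 list were lower and 1 was higher (median -0.28), and 10 of 20 of the ISGF3 list were lower and 7 higher (median -0.29). At 500 nM the counts were 11 lower and 0 higher of 19 (median -0.36), and 10 lower and 4 higher of 20 (median -0.37). IFITM1 fell by 1.95 and 2.29 on the log2 scale and MX1 by 1.25 and 1.47, while IFIT1, which binds viral RNA, rose by 0.92 and 1.08. GC-corrected, the lists had 10 and 9 lower genes at 50 nM, 14 and 8 at 500 nM, and 15 and 17 with ABBV-075. The GAS and IRF1 list then had 1 higher gene in each of the 3 comparisons, and the ISGF3 list had 3 with ABBV-075. The corrected median of the ISGF3 list was -0.04 at 50 nM and -0.16 at 500 nM, with 2 genes higher at each dose, and that of the GAS and IRF1 list was -0.36 and -0.39. Of all genes tested 24.3% at 50 nM and 22.8% at 500 nM were called lower before the correction, and 27.4% and 22.9% higher. After it, 2024 of 11150 genes were lower and 1818 higher at 50 nM. At 500 nM 2156 of 11091 were lower and 1927 higher, and with ABBV-075 3265 of 11187 were lower and 2993 higher.

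**Figure D5:**
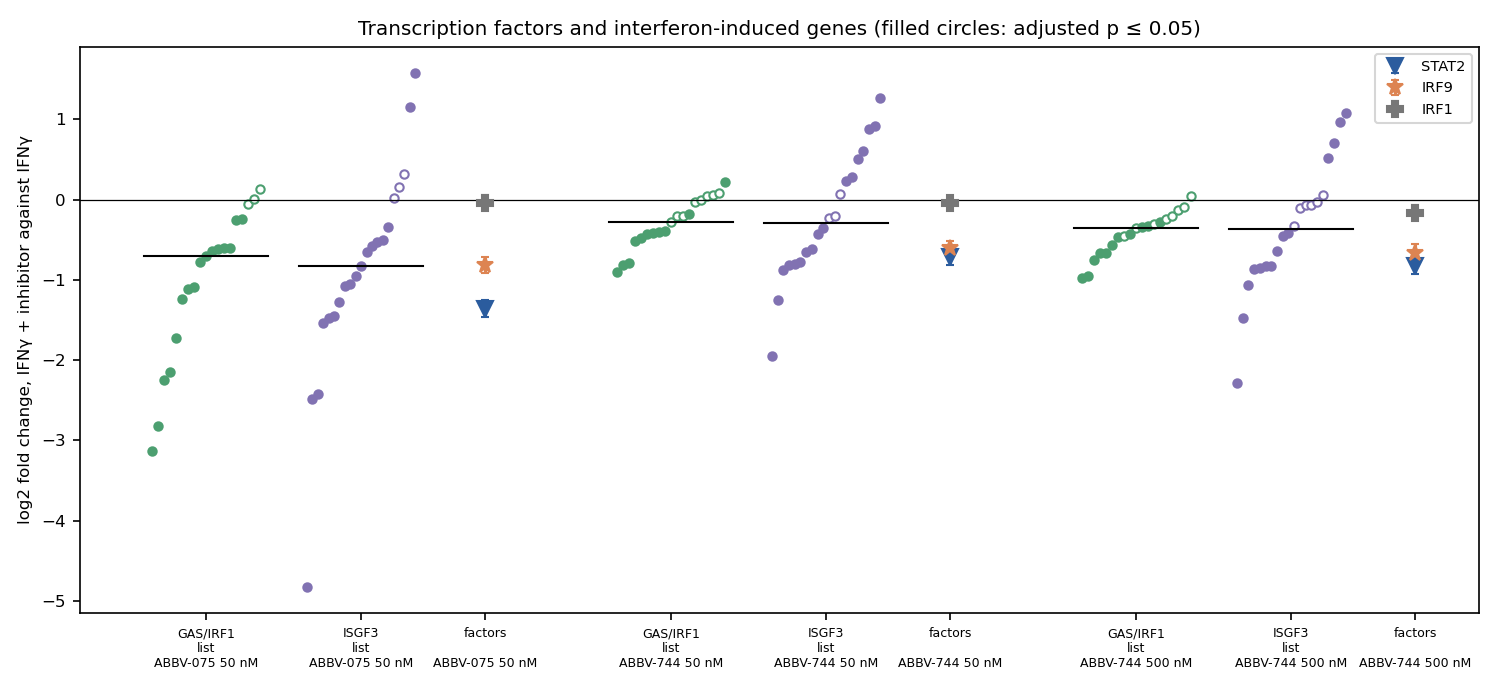
Log2 fold change in IFNγ-treated cells with each inhibitor against IFNγ alone. Circles are single genes of the GAS and IRF1 list (green) and the ISGF3 list (purple), filled where adjusted p was at most 0.05, black lines are list medians, and the larger symbols with SE bars are the factors. STAT2 and IRF9 lie below 0 with each inhibitor, and the list medians, which are not GC-corrected, run from -0.83 to -0.28.

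Of the 14 sensors, adaptors and kinases that activate IRF3, IRF5 and IRF7, 11 were tested in IFNγ-treated cells. IFNγ raised 3 of them, beside 2.76% of all genes called higher. They were the RNA sensors IFIH1 (2.29, adjusted p = 0.00241) and DDX58 (0.87, adjusted p = 0.00279) and the adaptor MYD88 (0.44, adjusted p = 0.000407). With ABBV-075 and IFNγ 5 of the 11 were lower and 4 higher, beside 28.4% and 28.2% of all genes. MYD88, which links Toll-like receptors to IRF5 and IRF7, fell by 1.69 and the kinase IKBKE fell by 1.93 on the log2 scale, while DDX58 rose by 1.24 and TBK1, the kinase of IRF3, rose by 1.21. TBK1 was also higher with ABBV-744 and IFNγ, by 1.43 at 50 nM and 1.31 at 500 nM. GC-corrected values of TBK1 were 0.53, 0.53 and 0.58 for ABBV-075 and the 2 doses of ABBV-744, all called. No interferon gene itself passed the filter, as 0 of the 10 ligands listed were tested.

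Of 4 other genes of the family list, IRF4 had at most 2 reads in any library and was not tested. The 3 IRF2-binding proteins, corepressors first found as partners of IRF2, were not called with IFNγ. IRF2BP2 was higher with every inhibitor treatment: by 0.85 with ABBV-075, 0.44 with ABBV-744 at 50 nM and 0.47 at 500 nM without IFNγ, and by 0.74, 0.48 and 0.51 with IFNγ. After the GC correction it was still called in all 6 comparisons, with values from 0.30 to 1.01. Before the correction, 1, 3 and 3 of the 3 IRF2-binding proteins were called higher without IFNγ, beside 19.8%, 8.81% and 7.48% of all genes. With IFNγ these counts were 2, 1 and 1, beside 28.2%, 27.4% and 22.9%. After the correction they were 3, 1 and 3 without IFNγ, beside 2425 of 11244, 623 of 11116 and 933 of 11124 genes. With IFNγ they were then 3, 1 and 3, beside 2993 of 11187, 1818 of 11150 and 1927 of 11091 genes.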

How the data were processed

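Total RNA of HepG2 cells was depleted of ribosomal RNA and sequenced as directional libraries. The authors trimmed reads with Trimmomatic 0.33 and aligned them to GRCh38 with STAR 2.7.1, and they deposited read counts per gene for each library, unnormalized, in 3 columns (unstranded and each strand). The annotation behind the counts is not given in the sources used here. The column of the gene's own strand was used, and it held 98.3% to 98.5% of stranded counts. Depth was 2978982 to 4304103 counts on genes, so genes with few reads, such as IRF5, carry wide errors.

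Each comparison was fitted on its own groups in edgeR 4.0.16 (R 4.3.3) with filterByExpr, TMM scaling and the quasi-likelihood test, with Benjamini-Hochberg adjustment over all genes tested and a threshold of 0.05. Intervals are ± 1.96 SE. SE was taken as the log2 fold change divided by the square root of F. Ratios were compared by exact permutation tests. The script was tested on simulated data. The members and lists were chosen with earlier results of these data known, and 2 genes of the lists are not reported here. Of each list, counts and up to 4 called genes with the largest change are named, STAT2 was named in every comparison after its values were seen, and for members that span at least 1 on the log2 scale the 3 genes most like them were taken. Alternatives were RLE size factors, library size only, DESeq2 1.42.0, no filter, a filter that asks 10 counts of every library, 1 fit over all 24 libraries, unstranded counts, a replicate block and leaving out each library. A GC correction, by a lowess of span 0.3 on the GC content of the longest transcript, was chosen after seeing the data. No replicates of a group were alike within sampling noise. Replicate numbers were not taken to pair the libraries, since in no comparison did every same-numbered pair have a correlation over 0.1.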

Additional observations from a re-analysis of the deposited data

Results flagged for a closer look

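Members whose inhibitor effect differed with IFNγ were marked by the interaction test in edgeR. For ABBV-744 at 50 nM the interactions on the log2 scale were -0.59 for IRF1, -0.88 for IRF3, -1.18 for IRF5 and -0.59 for IRF9, and for ABBV-744 at 500 nM the interaction of IRF9 was -0.80. In these 2 interactions the median over genes of low GC content was 1.00 and 0.76, and over genes of high GC content it was -0.60 and -0.35. The part of this trend in the result was not tested. The GC-corrected interactions were -0.16, -0.30, -0.74 and -0.10 at 50 nM and -0.44 at 500 nM.

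Reads on the strand opposite to a member were not used in the comparisons. For IRF5 there were 11 of them in the libraries with IFNγ and ABBV-075 (2, 6 and 3), above the 1 read in each DMSO library. For IRF7 there were 19 in the same group (6, 5 and 8) and 18 with IFNγ and ABBV-744 at 500 nM (5, 7 and 6), above the 4, 2 and 4 reads of DMSO. The group with IFNγ alone had the most, 23 reads in all and 4 to 11 by library, which overlapped DMSO. These differences were not tested.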

How the results depend on the processing

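Over 84 values of single members, the alternatives gave 1422 values, of which 4 turned the sign and passed the test, 33 lost a call, 30 gained one and 52 turned the sign of a value called in neither fit. The 4 were IRF1 with IFNγ and ABBV-075 or ABBV-744 at 50 nM, at 0.24 and 0.24 with the GC correction and 0.24 and 0.24 with the GC correction and the replicate block. Members called with ABBV-075 against DMSO were 1 in DESeq2 and 1 with at least 10 counts in every library, where IRF5 was no longer tested, and for ABBV-744 at 50 nM 1 with all 24 libraries in the fit. In these fits 28%, 38.4% and 12.8% of all genes were called. With the GC correction, with or without the block, 1 was called with ABBV-744 at 500 nM and IFNγ, 3 for the IFNγ response under ABBV-744 at 50 nM, 0 for the interaction of ABBV-744 at 50 nM and 0 at 500 nM. With the correction alone, 36.8% of all genes were called with ABBV-744 at 500 nM and IFNγ. For the IFNγ response under ABBV-744 at 50 nM this share was 32.6%, and the shares for the interactions are given above. The ABBV-075 interaction had 1 member called in DESeq2, 1 without a filter, 1 with the GC correction and 1 with the correction and block. The shares of all genes were 0.104%, 0.26%, 0.234% and 0.234%. Between compounds at 50 nM 1 was called with at least 10 counts in every library, again without IRF5, and 3 with the GC correction, and with IFNγ 1 was called by library size only, 1 with the GC correction and 1 with the correction and block. Leaving out 1 library gave 0 to 2 called members for ABBV-075 against DMSO, 0 to 1 for ABBV-744 at 50 nM, 0 to 1 for the ABBV-075 interaction, 1 to 2 for that of ABBV-744 at 500 nM and 0 to 1 between compounds with IFNγ. Over these fits the share of all genes called ran from 25.8% to 52.3% for ABBV-075 against DMSO. For ABBV-744 at 50 nM against DMSO it ran from 6.31% to 23.5%. Other causes were not tested.

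The replicate numbers were not taken to pair libraries: the deviations of 84 same-numbered pairs had correlations from -0.18 to 0.34, of which 24 were over 0.1, and 13 of 24 libraries correlated best with their own number. Between doses of ABBV-744 without IFNγ, where 2 of 3 pairs were over 0.1, the block raised the share of genes called from 0.0274% to 2.92%. The replicate block called 3 members with ABBV-744 at 500 nM and IFNγ and 3 for the IFNγ response under ABBV-075, where the fits without it called 2. The shares of all genes were 49.8% and 1.94% with the block, and 45.7% and 1.05% without it. Scaling by library size only moved the split of all genes called higher and lower, for IFNγ from 310 and 78 to 250 and 204, for ABBV-744 at 50 nM from 979 and 1123 to 415 and 1220, at 500 nM from 832 and 868 to 475 and 1067, for the interactions of ABBV-744 from 2866 and 3039 to 3386 and 1740 and from 2115 and 1712 to 2292 and 1095, between compounds with IFNγ from 1860 and 1892 to 1166 and 2836, and between doses from 0 and 3 to 1 and 2, or with IFNγ from 155 and 32 to 76 and 92. The median of all genes then moved by 0.19 in the 50 nM interaction. No called member changed direction under another scaling.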

Other observations

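Of 7 neighbours of member loci tested, 3 were called higher with IFNγ and 0 lower, beside 2.76% of all genes called higher. Among genes beside the members, REC8 lies 3809 bases and RNF31 573 bases from IRF9, and both rose with IFNγ. Another annotated gene on the same strand, ENSG00000259529, shares 5219 bases with IRF9 and has no counts of its own here. REC8, which encodes a meiotic cohesin subunit, had 0.702 CPM in DMSO and 7.07 CPM with IFNγ. Its DMSO level lies within the 0.697 to 1.01 CPM that 3 reads make. RNF31, which encodes a ubiquitin ligase subunit, rose by 0.55 on the log2 scale.

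The genes whose 8 group means were most like those of a member were sought among 4193 genes that span at least 1 on the log2 scale. For IRF1 they were VAMP5 (Pearson r = 0.996), REC8 and RNF213, and for IRF9 they were VAMP5 (r = 0.994), GBP3 and IFI27. For IRF2 they were PRRG4 (r = 0.972), ERAP2 and DTX3L, and for IRF5 they were OR7E14P (r = 0.976), MTX1 and NTHL1. The 8 means share libraries and their depth, and these correlations are descriptions over 8 groups. IRF3 spanned less than 1 on the log2 scale and was not compared.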
